A study of Homo sapiens with 7 samples.

Results

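ATP-binding cassette (ABC) genes were read out in UM-UC-3, an established human urothelial (bladder) carcinoma cell line. The members were the rows of the deposited table whose symbol is ABCA, ABCB, ABCC, ABCD, ABCE, ABCF or ABCG followed by a number only. This rule found 20 of the 13872 listed genes, of which 18 are described. Of the 44 family genes on the role lists used here, the other 26 were not in the table. ABCG2, the breast cancer resistance protein that is often studied in stem-like tumour cells, and all other ABCG genes are among those 26 and were not analysed here. The table itself holds only genes that reached at least 0.52 CPM (read counts scaled by library size) in some library.

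ABC proteins bind and hydrolyse ATP with a pair of nucleotide-binding domains. Most couple this to membrane-spanning domains that move a substrate across a membrane. ABCB1, several ABCC proteins and ABCG2 are known for pumping drugs and conjugates out of cells, and tumour cells that carry them can resist chemotherapy. Most ABCA proteins move lipids, ABCD proteins and part of the ABCB proteins work in peroxisomes, lysosomes and mitochondria, and ABCE and ABCF proteins have no membrane domain and act on ribosomes.

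The study sorted UM-UC-3 cells with the ALDEFLUOR assay, in which aldehyde dehydrogenase (ALDH) activity makes cells fluoresce, and sequenced total RNA. The groups were 3 clones isolated as ALDH-high (H1, H6 and H10), used as cancer stem-like cells, 3 isolated as ALDH-low (L1, L3 and L8), used as their non-stem-like counterpart, and 1 wild-type culture of the line as control. Culture in DMEM with FBS is described for the ALDH-high clones. No treatment or genetic change is given for any group. Each clone gave 1 library and all came from 1 line, so n = 3 counts clones of UM-UC-3 and p-values measure the spread between them. Library codes in the labels run in group order, so an order of preparation, if the codes give one, cannot be told apart from ALDH group. Triplets of values run in the order H1, H6, H10 and L1, L3, L8.

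Reads summed over listed genes came to 24177114 to 25664901 in the 7 libraries, and 1 read was worth about 0.04 CPM. The sort was visible in ALDH1A1, an enzyme that oxidises retinaldehyde, at 96.32, 33.37 and 42.2 CPM in the ALDH-high group against 0, 0.08 and 0 CPM in the ALDH-low group and 37.85 CPM in wild type. Of 14 urothelial and epithelial markers, 4 were listed (KRT7, KRT8, KRT18 and PPARG), and the uroplakin genes, GATA3, CDH1 and EPCAM were not. The 4 listed markers summed to 499 to 739 CPM in the ALDH-high group, 243 to 519 CPM in the ALDH-low group and 753 CPM in wild type. KRT8 and KRT18 carry that sum. Lower means in the ALDH-high group were those of KRT7, at 1.99 ± 0.731 against 5.3 ± 1.83 CPM, and PPARG, at 0.87 ± 0.417 against 3.78 ± 3.89 CPM. Limma and edgeR passed 0 of the 4 and DESeq2 1, beside 1.34%, 1.02% and 7.90% of all tested genes. At an unadjusted limma p under 0.05 were KRT7, lower in the ALDH-high group, and KRT8, higher in it, beside 19.7% of all tested genes. None of 7 fibroblast and 5 endothelial markers was listed, and of 6 leukocyte markers CD68 alone was, at 84.3 to 131 CPM in the ALDH-high group, 64.4 to 92.9 CPM in the ALDH-low group and 139 CPM in wild type, with PTPRC and CD3E not in the table. The part of these markers in the results was not tested. In RNA from a whole culture, fewer cells with a transcript and less of it per cell cannot be told apart.

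Between the clones sorted for high and for low ALDH activity, no reported ABC gene that was tested was called higher or lower. This does not show equal levels. Of the 18 members, 17 had at least 1 CPM in at least 3 clones and were tested, and limma passed 0 of them at an adjusted p under 0.05 over all 12705 tested genes (smallest adjusted p = 0.205). Over all tested genes 1.34% passed, 0.645% higher and 0.693% lower in the ALDH-high group. Passed by edgeR were 0 of the 17 (1.02% of all genes), and by DESeq2 also 0 (7.90%). At an unadjusted p under 0.05 stood 3 members (ABCC4, ABCC3 and ABCF2), beside 19.7% of all genes. Of the 3, ABCF2 was higher and the ABCC genes lower in the ALDH-high group, where 10.4% and 9.31% of all genes stood. That count was 0 without H1 or H10, and 1 without L3 or L8. The groups did not overlap in 6 of the 17, 1 with ALDH-high above and 5 with ALDH-high below, beside 26.1% of all tested genes (14% above and 12.1% below). Among the 5 is ABCC3, which reached 1 CPM in the ALDH-low clones alone, so its order follows from the filter.

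Differences are given as the ALDH-high mean less the ALDH-low mean of log2(CPM + 1), a scale that understates the change of genes near 0 CPM. They were above 0 in 8 members (50.4% of all tested genes) and below 0 in 9 (49.6%), with a median of -0.09 against 0.00 over all tested genes. On this scale, the limma 95% interval stayed within 1 log2 unit in either direction for 14 of the 17. For the other 3, ABCC3, ABCA2 and ABCA7, the interval reached past 1 log2 unit. The fold in CPM can be larger than this scale gives, most of all at low CPM.

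**Figure D1:**
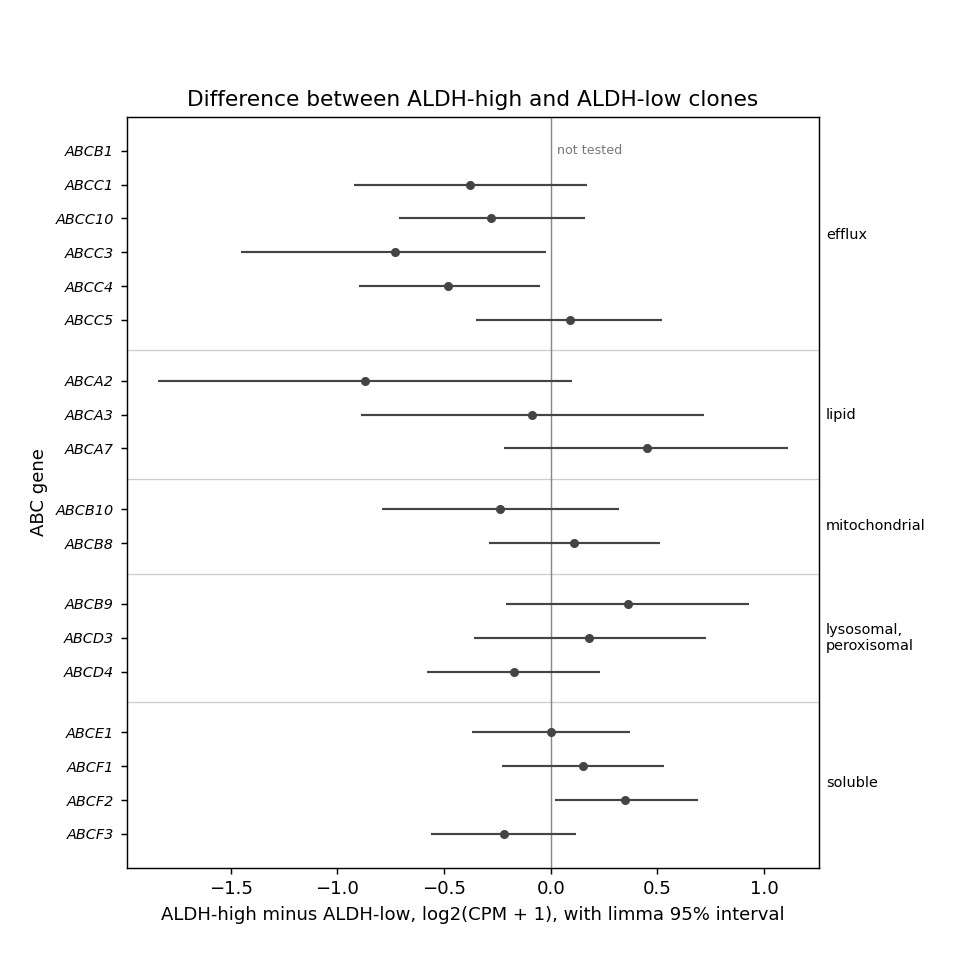
The difference between 3 ALDH-high and 3 ALDH-low clones is plotted for each ABC gene on log2(CPM + 1), with points for limma estimates, lines for 95% intervals and genes grouped by role. Intervals of ABCC4, ABCC3 and ABCF2 miss 0, all others cross it, and no member passed after adjustment over all genes. ABCB1 was not tested, and ABCC3 passed the filter through the ALDH-low clones alone.

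Of 12 genes with a role in drug and conjugate efflux, 6 were listed and 5 tested. Limma, edgeR and DESeq2 passed 0 of them, with 2 at an unadjusted p under 0.05, beside 19.7% of all tested genes. The difference was below 0 in 4 of the 5, beside 49.6% of all tested genes, with a median of -0.38. The groups did not overlap in 3 (ABCC4, ABCC3 and ABCC10), each with ALDH-high below, beside 12.1% of all tested genes. ABCC3 passed the filter through the ALDH-low clones alone, so its direction and lack of overlap follow from that filter. They are not read as a result. The 5 genes are not replicates and were not tested as a set.

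ABCB1 (ENSG00000085563, chromosome 7) encodes P-glycoprotein, the classic multidrug pump. It had 15, 5 and 0 reads in the ALDH-high clones (0.6, 0.21 and 0 CPM), 0 reads in all 3 ALDH-low clones and 2 reads in wild type (0.08 CPM). The exact 95% counting intervals were 0.334 to 0.983 CPM in H1 and 0.067 to 0.479 CPM in H6. In the 4 clones with 0 reads they reached 0.145 to 0.148 CPM, and all these intervals cover counting error only. The table lists genes that reached 0.52 CPM in some library, and ABCB1 did so in H1 alone, so no fold between the groups is drawn from it. H10 had no read, like the ALDH-low clones, so the groups overlap. The gene did not reach the filter on low values and was not tested in the limma fit.

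RefSeq (GRCh38.p14) gives ABCB1 more than 1 start. The 250 bases before each of 2 of them are shown because they differ in base composition and the table does not say which start the few reads came from. Capitals mark the GC box, searched as GGGCGG on both strands. They also mark the CCAAT box, searched as CCAAT on both strands, which reads as ATTGG where the other strand holds it. The sequences run 5′ to 3′ on the gene's strand, minus in both.
ABCB1, downstream start, chr7:87600885-87601134: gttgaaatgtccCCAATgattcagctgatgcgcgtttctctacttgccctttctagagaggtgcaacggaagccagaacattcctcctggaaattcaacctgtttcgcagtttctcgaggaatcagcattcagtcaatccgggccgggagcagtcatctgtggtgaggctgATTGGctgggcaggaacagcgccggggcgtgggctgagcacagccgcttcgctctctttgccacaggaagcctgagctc
ABCB1, upstream start, chr7:87713296-87713545: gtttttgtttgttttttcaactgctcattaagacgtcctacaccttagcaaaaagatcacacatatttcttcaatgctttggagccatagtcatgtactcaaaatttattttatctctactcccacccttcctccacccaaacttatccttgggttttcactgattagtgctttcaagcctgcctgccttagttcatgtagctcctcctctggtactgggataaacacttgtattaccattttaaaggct
The downstream window holds 12 CG dinucleotides and 2 CCAAT boxes, and the upstream window 1 CG and no match. Neither holds the GC box, which 15 of 21 windows of 16 ABC members hold, beside 42.6% of 35116 RefSeq windows of that length. The RefSeq windows include genes that are not in the table. Member windows also held more G and C (median 66.4% against 58.0%) and more CG dinucleotides (median 24 against 11), so the shares are not like for like. The CCAAT box is in 5 of the 21, beside 32.0% of all windows. A match of letters is a description and not a binding site.

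ABCC4 (ENSG00000125257, chromosome 13) exports cyclic nucleotides, prostaglandins and nucleoside analogues. It stood at 17.68, 25.24 and 20.64 CPM in the ALDH-high group and at 28, 33.31 and 27.76 CPM in the ALDH-low group, with 17.82 CPM in wild type. Every ALDH-high clone lay below every ALDH-low clone, and wild type lay with the lowest ALDH-high clone. The means were 21.2 ± 3.81 against 29.7 ± 3.14 CPM (SD, n = 3 each). The difference was -0.48 (SE 0.184, 95% interval -0.90 to -0.05), the smallest p of the reported members, and it did not pass (limma adjusted p = 0.205). Its RefSeq upstream window is shown as that of the member with the smallest p, next to the ABCB1 windows, and no capital stands in it since neither motif matched. It holds 42 CG dinucleotides against 12 and 1 at the starts of ABCB1.
ABCC4, minus strand, chr13:95301452-95301701: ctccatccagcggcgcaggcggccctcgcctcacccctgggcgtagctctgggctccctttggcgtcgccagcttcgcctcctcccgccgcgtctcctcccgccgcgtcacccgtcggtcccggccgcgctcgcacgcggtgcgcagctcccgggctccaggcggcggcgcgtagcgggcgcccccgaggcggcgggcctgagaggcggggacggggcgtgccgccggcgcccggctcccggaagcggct

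ABCC3 (ENSG00000108846, chromosome 17) exports glucuronide conjugates and bile salts. It was near the filter, at 0.91, 0.78 and 0.68 CPM in the ALDH-high group against 1.08, 3.65 and 1.72 CPM in the ALDH-low group. Wild type had 0.2 CPM. The gene passed the filter through the ALDH-low clones alone, so the order of the groups follows from that filter. The groups did not overlap, but L3 alone stood far above the others, with 93 reads against 27 and 43 in the other ALDH-low clones and 17 to 23 in ALDH-high clones. The difference was -0.73 (SE 0.312, limma adjusted p = 0.243). It was -0.41 without L3 and -0.99 without L1. ABCC10 (chromosome 6), a pump for taxanes and other lipophilic drugs, ranged from 4.27 to 4.53 CPM in ALDH-high and from 5.22 to 6.16 CPM in the ALDH-low group. Its groups did not overlap (-0.28, SE 0.187, adjusted p = 0.458).

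ABCC1 (ENSG00000103222, chromosome 16), the multidrug resistance protein that exports glutathione conjugates, stood at 6.28, 11.33 and 8.52 CPM in the ALDH-high group against 10, 12.69 and 11.4 CPM in the ALDH-low group and 7.23 CPM in wild type. H6 lay inside the ALDH-low range, so the groups overlap (-0.38, SE 0.237, adjusted p = 0.424). The difference was -0.18 without H1 and -0.56 without H6. ABCC5 (ENSG00000114770, chromosome 3), an exporter of cyclic nucleotides, stood at 17.88, 17.07 and 19.96 CPM against 13.76, 18.7 and 19.6 CPM, with 14.31 CPM in wild type. Its groups overlap almost fully, and the difference of 0.09 has an interval of -0.35 to 0.52 (adjusted p = 0.836).

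**Figure D2:**
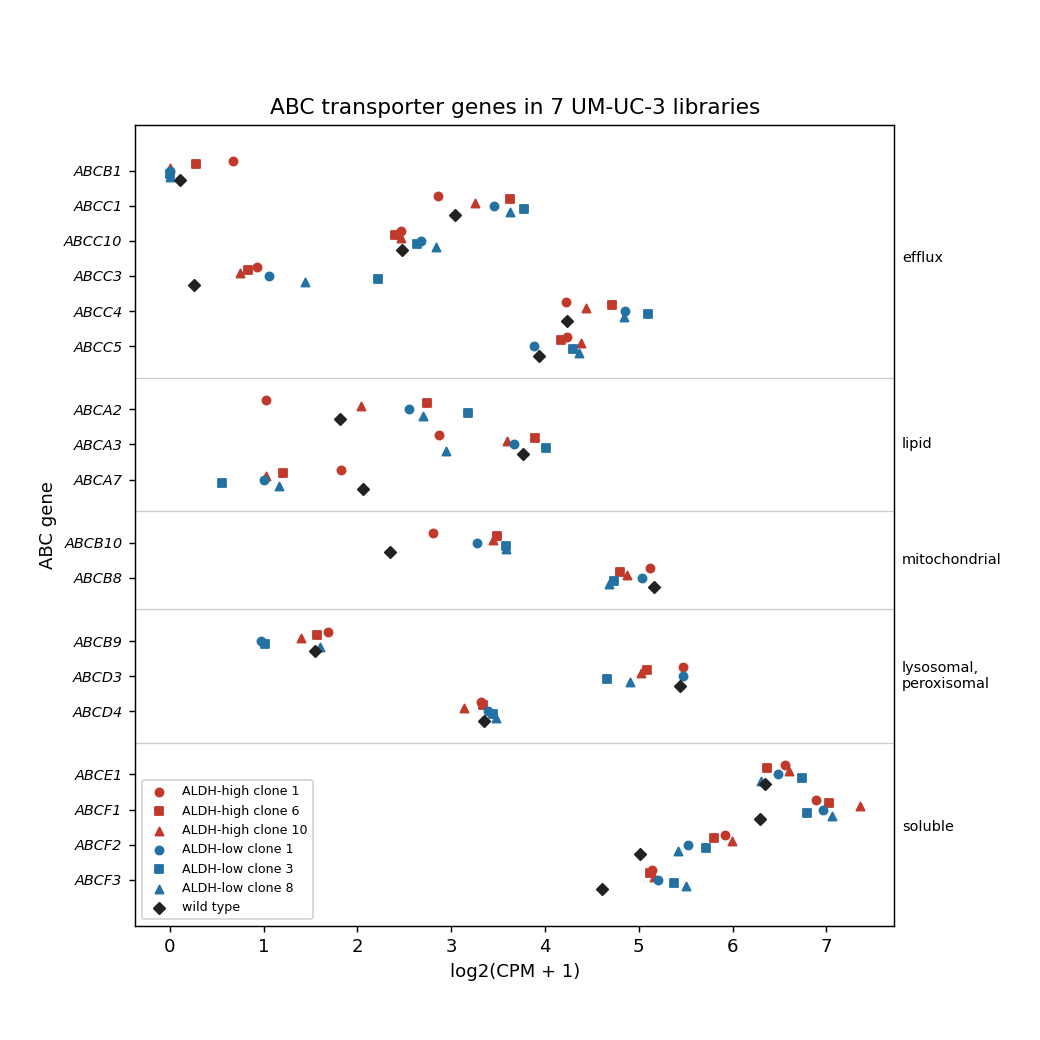
Each row is an ABC gene, grouped by role, and each marker is 1 library on log2(CPM + 1), red for ALDH-high clones, blue for ALDH-low clones and black for wild type. Levels compare libraries within a row, since CPM is not scaled by gene length. Red and blue separate without overlap in ABCC4, ABCC3, ABCC10, ABCD4, ABCF2 and ABCF3. Of these, ABCC3 passed the filter on low values through the ALDH-low clones alone.

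Of 18 genes for the transport of lipids, sterols and bile only ABCA2, ABCA3 and ABCA7 were listed, and all 3 were tested. Limma, edgeR and DESeq2 passed 0, with 0 at an unadjusted p under 0.05. By the ratio of the highest to the lowest of the 6 clones, which takes in the group difference, ABCA2 (7.82) and ABCA7 (5.40) were with ABCC3 (5.37) the highest tested members. By the SE of the difference they were ABCA2, ABCA3 and ABCC3. ABCA2 (ENSG00000107331, chromosome 9), a lipid transporter of late endosomes and lysosomes, stood at 1.03, 5.7 and 3.12 CPM in the ALDH-high group against 4.84, 8.05 and 5.48 CPM in the ALDH-low group and 2.52 CPM in wild type. Its highest clone had 7.82 times the CPM of its lowest, and H1 lay below all other libraries with 26 reads. The difference was -0.87 (SE 0.420, 95% interval -1.84 to 0.10, adjusted p = 0.300). It was -0.41 without H1 and -1.27 without H6.

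ABCA3 (ENSG00000167972, chromosome 16), which loads phospholipids into lamellar bodies, stood at 6.32, 13.91 and 11.08 CPM in the ALDH-high group against 11.76, 15.08 and 6.68 CPM in the ALDH-low group and 12.59 CPM in wild type. H1 and L8 were low and the other 4 clones high, and the groups overlap (-0.09, SE 0.351, adjusted p = 0.912). The pseudogene ABCA17P overlaps ABCA3 on the opposite strand in GENCODE 29, and no source used here says whether counting used strand. ABCB9, ABCC10 and ABCE1 likewise overlap listed genes on the opposite strand. ABCA7 (chromosome 19), a phospholipid transporter with a role in phagocytosis, ranged from 1.04 to 2.54 CPM in ALDH-high and from 0.47 to 1.24 CPM in the ALDH-low group, on 12 to 64 reads. Its difference was 0.45 (SE 0.288, adjusted p = 0.434). It was 0.21 without H1, which held 64 reads against 32 and 26 in H6 and H10. The difference was 0.27 without L3 and 0.61 without H10.

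Of 3 genes on the list for mitochondrial transport ABCB8 and ABCB10 were listed and tested. Limma, edgeR and DESeq2 passed 0, with 0 at an unadjusted p under 0.05, and the groups overlap in both. ABCB8 (ENSG00000197150, chromosome 7), linked to mitochondrial iron export, stood at 33.74, 26.76 and 28.28 CPM against 31.68, 25.69 and 24.68 CPM, with 34.73 CPM in wild type (0.11, SE 0.173, adjusted p = 0.760). H1 was the highest clone, and wild type lay above it. ABCB10 (ENSG00000135776, chromosome 1), needed for heme synthesis in red cell precursors, stood at 6, 10.22 and 9.92 CPM against 8.68, 11 and 11.04 CPM, with 4.08 CPM in wild type (-0.24, SE 0.241, adjusted p = 0.631). Here the order was the opposite, with H1 the lowest clone and wild type below it. Without H1 the difference was -0.01 for ABCB10 and 0.02 for ABCB8. Over the fits with 1 clone left out it ranged from -0.36 to -0.01 for ABCB10 and from 0.02 to 0.22 for ABCB8. GENCODE 29 lists 3 pseudogenes of ABCB10, none of them in the table, whose reads could not be told apart from the gene's if sequences are shared.

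Of 4 genes on the list for lysosomal and peroxisomal transport 3 were listed and tested. Limma, edgeR and DESeq2 passed 0, with 0 at an unadjusted p under 0.05. ABCD3 (ENSG00000117528, chromosome 1), a peroxisomal importer of branched-chain acids and bile acid precursors, stood at 43.31, 33.08 and 31.6 CPM in the ALDH-high group against 43.24, 24.39 and 29.08 CPM in the ALDH-low group and 42.56 CPM in wild type. H1 and L1 were alike and highest, and the groups overlap (0.18, SE 0.236, adjusted p = 0.712). The difference was 0.41 without L1, 0.04 without H1 and 0.01 without L3. ABCD4 (ENSG00000119688, chromosome 14), needed for cobalamin to leave lysosomes, stood at 8.98, 9.11 and 7.8 CPM against 9.48, 9.94 and 10.12 CPM, with 9.19 CPM in wild type. Its groups did not overlap, yet the gap was small beside the intervals of the test (-0.17, 95% interval -0.58 to 0.23, adjusted p = 0.625).

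ABCB9 (chromosome 12), a lysosomal peptide transporter, ranged from 1.64 to 2.23 CPM against 0.96 to 2.04 CPM (0.36, SE 0.248, adjusted p = 0.467). The groups overlap, and the difference was 0.56 without L8 and 0.24 without L1.

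All 4 soluble members, the genes without a membrane domain, were listed and tested. Limma, edgeR and DESeq2 passed 0, with 1 (ABCF2) at an unadjusted p under 0.05. ABCE1 (ENSG00000164163, chromosome 4), which splits ribosomes after termination, stood at 93.58, 81.72 and 96.48 CPM against 88.8, 106.06 and 77.92 CPM, with 80.45 CPM in wild type. The ALDH-high values lie inside the ALDH-low range, and the interval of the difference was -0.37 to 0.37 (adjusted p = 0.995). Its sign turned with median-ratio scaling, edgeR and DESeq2, so it has no direction. ABCF1 (ENSG00000204574, chromosome 6), a partner of initiation factor eIF2, stood at 117.66, 129.2 and 163 CPM against 123.72, 110.31 and 132.84 CPM. Only H10 lay above the ALDH-low range (0.15, SE 0.164, adjusted p = 0.655), and wild type had 77.33 CPM. The difference was 0.02 without H10 and 0.25 without H1.

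ABCF2 (ENSG00000033050, chromosome 7), a cytosolic ABC ATPase, stood at 59.73, 54.75 and 62.6 CPM in the ALDH-high group against 45.16, 51.46 and 41.64 CPM in the ALDH-low group and 31.33 CPM in wild type. It was the only tested member with every ALDH-high clone above every ALDH-low clone, at 59.0 ± 3.97 against 46.1 ± 4.98 CPM (SD, n = 3 each). The difference of 0.35 (SE 0.147, 95% interval 0.02 to 0.69) did not pass (adjusted p = 0.235). Its pseudogenes ABCF2P1 and ABCF2P2 were not in the table. The upstream window is shown because of that order, and it holds 1 GC box and 1 CCAAT box, both on the opposite strand, and 26 CG dinucleotides.
ABCF2, minus strand, chr7:151227206-151227455: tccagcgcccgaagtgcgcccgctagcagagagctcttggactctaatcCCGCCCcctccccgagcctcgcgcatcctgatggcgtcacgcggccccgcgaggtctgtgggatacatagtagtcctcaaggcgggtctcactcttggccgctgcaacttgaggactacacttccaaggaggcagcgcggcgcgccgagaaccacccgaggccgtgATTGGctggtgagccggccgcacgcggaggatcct
ABCF3 (chromosome 3), its paralog, showed the opposite order on a smaller scale, with 33.82 to 34.76 CPM in ALDH-high and 35.76 to 44.44 CPM in the ALDH-low group (-0.22, SE 0.147, adjusted p = 0.458). Wild type had 23.34 CPM.

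By role, the median difference was -0.38 for 5 efflux genes, -0.09 for 3 lipid genes, -0.06 for 2 mitochondrial genes, 0.18 for 3 lysosomal and peroxisomal genes and 0.08 for 4 soluble genes, against 0.00 for all genes tested. These medians rest on few genes, which are not replicates, and no test was made between roles. The summed CPM of the efflux genes was 47.88, 58.9 and 54.32 in ALDH-high clones against 58.24, 73.57 and 66.64 in ALDH-low clones, so H6 lay inside the ALDH-low range. Summed CPM of the lipid genes was 15.3 ± 5.52 against 18.2 ± 5.13 and that of the mitochondrial genes 38.3 ± 1.38 against 37.6 ± 2.45. For the lysosomal and peroxisomal genes it was 46.6 ± 7.06 against 43.4 ± 9.36 and for the soluble genes 321 ± 31.6 against 299 ± 7.74 (SD, n = 3 each). In all of these the groups overlap.

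**Figure D3:**
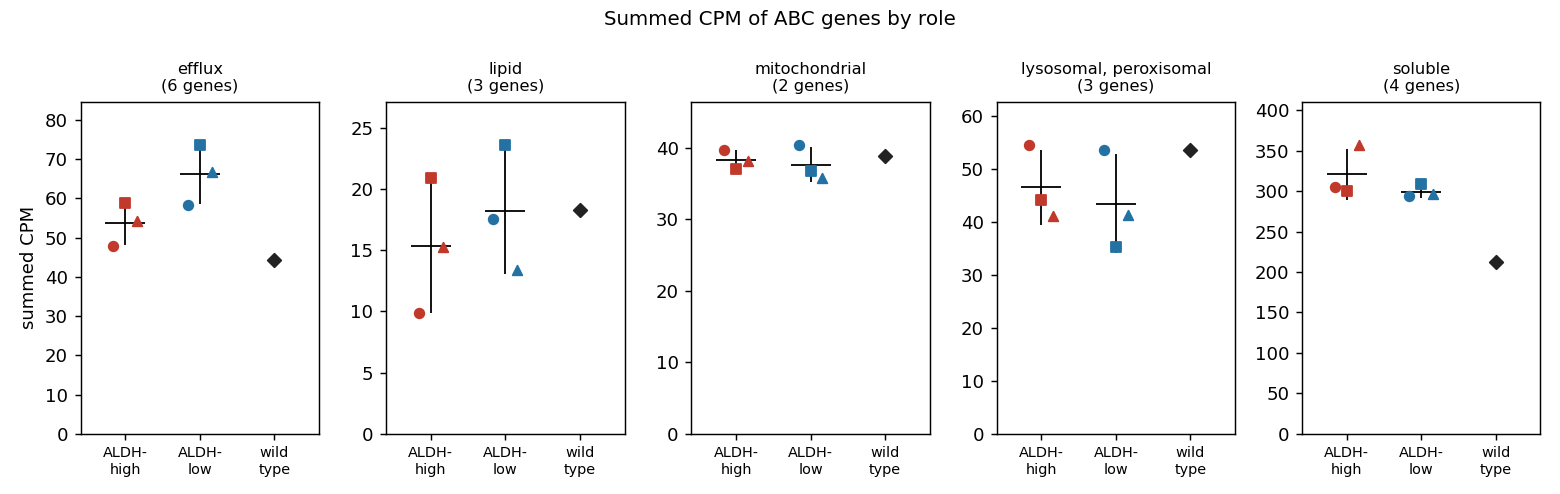
Summed CPM of the reported ABC genes of each role is plotted by library. Red circles, squares and triangles mark H1, H6 and H10, and blue ones L1, L3 and L8. Black lines show the mean and SD of 3 clones and a diamond marks wild type. The efflux panel shows lower ALDH-high values with H6 inside the ALDH-low range, and in the soluble panel wild type, at 212.5, lies below all clones.

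Wild type had no replicate, so its values are a description. Its value lay outside the range of the 6 clones in 7 of the 17 tested members, above in 2 and below in 5, beside 48.0% of all tested genes (22.6% above and 25.4% below). Below all clones were ABCF1, ABCF2 and ABCF3, by 0.72, 0.71 and 0.65 log2 units under the clone mean in the order named, ABCB10 at 4.08 CPM and ABCC3 at 0.2 CPM, the latter on 5 reads. Above all clones were ABCB8 at 34.73 CPM and ABCA7 at 3.16 CPM. Outside the clone range were both reported mitochondrial genes, 3 of the 4 soluble genes and 1 of 5 tested efflux genes. Among the lipid genes it was 1 of 3, and among the lysosomal and peroxisomal genes 0 of 3. With 1 library and few genes a role, no test was made between roles. For the soluble genes the summed CPM was 212.5 in wild type and 293.4 to 356.8 in the clones.

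Among the clones, H1 was nearest to wild type in 6 of the 17 members (35.3%, beside 32.4% of all tested genes), both mitochondrial genes among them. H6 was nearest in 4 (23.5%, beside 13.4%), H10 in 2 (11.8%, beside 10.9%), L1 in 3 (17.6%, beside 16.6%), L3 in 1 (5.88%, beside 14%) and L8 in 1 (5.88%, beside 12.6%). For H1, a share near that of all genes is not a result about the members. Across the 6 clones, the highest CPM was 1.30 to 7.82 times the lowest for the 17 tested members, with a median of 1.78 against 1.84 over tested genes with reads in every clone. For the 4 soluble genes that ratio was 1.31 to 1.5.

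**Figure D4:**
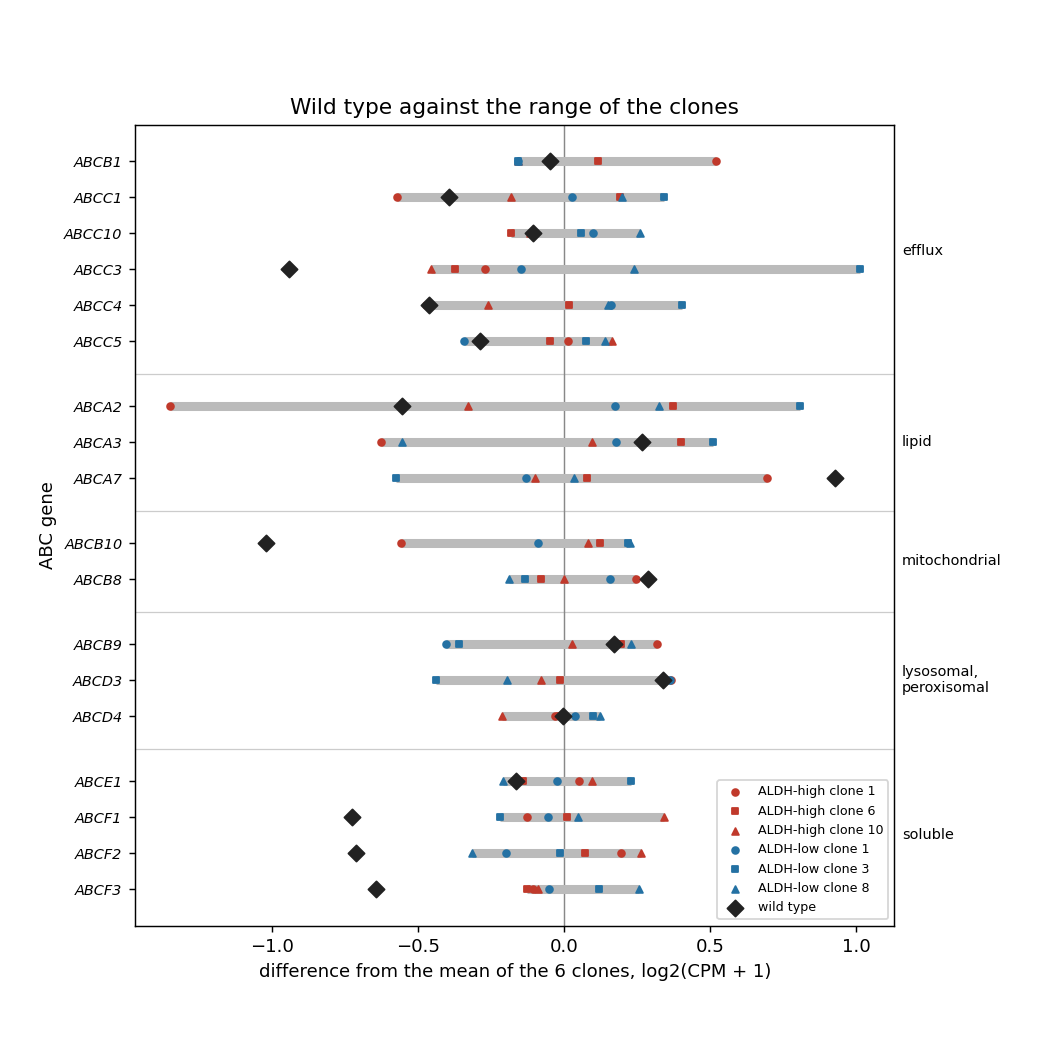
Each row is an ABC gene, with the difference of each library from the mean of the 6 clones on log2(CPM + 1). Grey bars span the clones (red for ALDH-high, blue for ALDH-low) and black diamonds mark wild type, which lies left of the bar for ABCF1, ABCF2, ABCF3, ABCB10 and ABCC3 and right of it for ABCB8 and ABCA7.

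Genes that work with the ABC proteins were taken from 10 lists, of which 9 held tested genes (104 genes). Limma passed 1 of these, which fell, edgeR passed 1 and DESeq2 9, beside 1.34%, 1.02% and 7.90% of all genes in the order named. At an unadjusted p under 0.05 were 24 (23.1%), beside 19.7% of all genes. Counts near these shares are not a result about the partners as a set. The gene that fell was MVP, which encodes the shell of vault particles, large ribonucleoprotein bodies that have been studied in drug-resistant tumours next to the ABC pumps. It stood at 20.31, 24.83 and 19.36 CPM in the ALDH-high group against 49.4, 41.72 and 40.56 CPM in the ALDH-low group and 56.75 CPM in wild type, with no overlap between groups. MVP fell by 1.0 log2 units (SE 0.168, limma adjusted p = 0.0381). The call was lost when any 1 clone was left out (adjusted p from 0.0609 to 0.155), with differences of -1.10 to -0.91 in those 6 fits, and kept in the 13 other alternatives. PARP4, the vault's poly(ADP-ribose) polymerase, stood at 32.4 ± 5.21 against 45.4 ± 1.72 CPM (adjusted p = 0.159), and all 3 vault genes had a difference below 0 (median -0.49).

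For glutathione supply and conjugation, which feeds ABCC1, 0 of 12 tested genes passed by limma or edgeR and 2 by DESeq2, with 4 unadjusted. For this and the other lists, the shares over all genes were 7.90% by DESeq2 and 19.7% unadjusted. The microsomal glutathione transferase MGST3 stood at 127 ± 22.4 against 231 ± 26.3 CPM (-0.87, limma adjusted p = 0.0559) and MGST1 at 294 ± 102 against 522 ± 59.6 CPM (adjusted p = 0.108). Also unadjusted, but higher in the ALDH-high group, were GSTP1 (0.48, limma adjusted p = 0.176) and GCLM (0.42, limma adjusted p = 0.202). These 2 were named after their values were seen. Over the list the difference was above 0 in 3 genes and below 0 in 9. Among transcriptional regulators of ABC genes, 0 of 15 passed by limma or edgeR and 2 by DESeq2, with 7 unadjusted, beside the same shares over all genes. The regulators were not tested as a set. The nuclear receptor gene PPARA stood at 1.26 ± 0.432 against 3.29 ± 1.07 CPM (adjusted p = 0.122) and HIF1A, the hypoxia factor, at 66.8 ± 0.924 against 121 ± 43.5 CPM (adjusted p = 0.124). For HIF1A, L1 stood at 171.4 CPM against 95.69 and 96.28 CPM in L3 and L8. Its difference was -0.79, with -0.52 without L1 and -0.93 without L3 or L8. The regulators that passed by DESeq2 were HIF1A (adjusted p = 0.0254) and PPARD (adjusted p = 0.0148), the latter named after its values were seen, and PPARA did not (adjusted p = 0.0558). Of 8 sterol and apolipoprotein partners 0 passed by limma or edgeR and 1 by DESeq2, with 1 unadjusted, and NPC1, the lysosomal cholesterol exporter, stood at 16.7 ± 0.577 against 28.5 ± 7.49 CPM (adjusted p = 0.123).

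For iron-sulfur cluster and heme genes 0 of 24 passed by limma or edgeR and 1 by DESeq2, with 4 unadjusted and a median of 0.03. SLC25A38, a glycine carrier for heme synthesis, stood at 19.0 ± 0.861 against 11 ± 3.34 CPM (limma adjusted p = 0.127). For peroxisome assembly and beta-oxidation 0 of 20 passed by limma or edgeR and 2 by DESeq2, with 2 unadjusted. Those were PEX16 at 41.0 ± 1.60 against 23.9 ± 4.90 CPM (adjusted p = 0.0808) and PEX5, the import receptor, at 20.7 ± 3.21 against 12.1 ± 1.18 CPM (adjusted p = 0.1). Of 8 cobalamin genes limma, edgeR and DESeq2 passed 0, with 2 unadjusted, MMADHC (49.5 ± 5.11 against 73.5 ± 13.8 CPM, adjusted p = 0.156) and CD320, the receptor that takes up cobalamin (129 ± 9.27 against 97.7 ± 7.31 CPM, adjusted p = 0.167). Of 12 translation partners these tools passed 0, with 2 unadjusted, the initiation factor genes EIF5 (222 ± 14.5 against 175 ± 10.8 CPM, adjusted p = 0.2) and EIF2S1 (a log2 difference of 0.35, adjusted p = 0.222). Of TAP1 and TAP2 they passed 0, with 0 unadjusted. The pores of ATP-sensitive potassium channels were not in the table.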

How the data were processed

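Total RNA of 7 UM-UC-3 libraries was read from 1 table in CPM, which the authors deposited with 2 decimals, under column names that end in the name of CAGEr (R software for 5′-end tags), per the file headers. BWA 0.5.9, hg19 and mm9 are named without roles, per the submitters' processing notes. No source used here gives the assay type or the read assignment. The low values are multiples of the CPM of 1 read. Whole reads were recovered for 100% of values within the rounding (0.0051 CPM) and, within 0.1 read, for 78.7 to 81.89% in H1, H6, L3 and wild type and 99.77 to 99.81% in the others. Another gene has identical values for 1017 listed genes, no member among them, so totals may count reads repeatedly. In H1 the reads summed over listed genes (25664901) exceeded the library size taken from the CPM of 1 read (25165297). The same held in wild type (25232850 against 25021256).

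A gene was tested where 3 or more of 6 clones reached 1 CPM, with limma 3.58.1 in R 4.3.3 (log2(CPM + 1), eBayes with trend, two-sided, Benjamini-Hochberg over all genes, threshold 0.05). With edgeR 4.0.16 (quasi-likelihood) and DESeq2 1.42.0 the recovered reads were tested as alternatives. Further alternatives changed the pseudocount (0.1 or 5) or the filter (none, or 5 CPM), or used other scalings, eBayes settings and library weights, wild type in the fit, 1 row per set of identical values and each clone left out. Recovery and fits were tested on simulated data. Members, roles and lists were chosen with earlier results of these data known. Of the 20 genes the rule found, 2 are not reported here and enter no count of members. All others are described, with each library's value for those at an unadjusted p under 0.05, the 2 highest of each role, ABCB1 and ABCC1. From each partner list the genes that passed by limma, or up to 2 with the smallest p, are named. PPARD, GSTP1 and GCLM were added after their values were seen. Chromosomes and overlaps come from GENCODE 29 (GRCh38), by gene ID. RefSeq windows were found for 16 of 18 members.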

Additional observations from a re-analysis of the deposited data

How the results depend on the processing

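No reported ABC gene passed in the limma fit or in any of its 19 alternatives. Over all genes, 170 passed, 86 with a filter at 5 CPM, 700 with library weights, 1004 with DESeq2 and 34 to 173 with 1 clone left out (34 and 57 without H10 and H6, 44 and 37 without L1 and L8). The cause was not tested. Of 320 differences of single members under these alternatives, 309 kept their sign, and 14 of 17 members never turned. The other 11 were those of 3 members with differences near 0. ABCE1, at 0.00, came to -0.01 with median-ratio scaling, -0.03 with edgeR and -0.02 with DESeq2, and ranged from -0.10 to 0.12 with 1 clone left out. ABCA3 came to 0.17 with library weights and ranged from -0.39 to 0.21 with 1 clone left out, and ABCC5 from -0.06 to 0.18. The median of the lipid genes turned above 0 with library weights (0.17) and without H1 (0.21) or L3 (0.15). No paired analysis was made because the labels pair no ALDH-high clone with an ALDH-low clone. Depth limits ABCB1, ABCC3, ABCA7 and ABCB9, whose values rest on fewer than 100 reads a library, and a missing call in 3 against 3 clones does not show equal levels.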

Other observations

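Rows next to the family were also read. The transcribed pseudogene ABCA11P stood at 41.92, 22.98 and 27.92 CPM in H1, H6 and H10 against 17.76, 18.07 and 24.08 CPM in L1, L3 and L8. Wild type lay above all clones at 47.64 CPM. The groups overlap, and the difference of 0.58 log2 units (SE 0.245) did not pass (limma adjusted p = 0.245). ABCA17P, the pseudogene opposite ABCA3, was at 0.08 to 0.68 CPM in the clones and at 2 CPM in wild type, and it did not reach the filter on low values. TAP1 and TAP2, ABC genes of the antigen peptide transporter that carry other symbols, stood at 7.97 ± 0.870 against 9.62 ± 2.24 CPM and at 41.5 ± 6.21 against 36.9 ± 5.80 CPM (SD, n = 3 each; limma adjusted p = 0.617 and 0.656). Wild type lay above all clones for TAP1, at 16.15 CPM, and below all for TAP2, at 29.1 CPM. TAP2 is listed under 2 identifiers with the same values.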
